A study of Mus musculus with 15 samples.

Results

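Transcripts of 9 genes of the tricarboxylic acid (TCA) cycle were followed through RNA-Seq libraries of NMuMG cells, a line of normal mouse mammary gland epithelial cells, and of cell lines made from them. The genes were Ogdhl, Ogdh, Dlst, Cs, Idh2, Idh3a, Sdha, Fh1 and Mdh2. They were selected on a measured value, the rise of Ogdhl in FAM3C KO over shPCBP1, which was among the largest, so the FAM3C KO values below describe that choice and carry no test. Each symbol matched 1 row, 9 of 13893 genes in the first dataset and 9 of 15023 in the second.

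The first dataset held lines that all carry a knockdown of PCBP1 by short hairpin RNA (shPCBP1), with 1 RNA sample per line. Its 4 shPCBP1 lines were the unaltered line and CT clones 1 to 3, which received Cas9 without gene-specific guides. The rest were 3 FAM3C KO and 3 LIFR KO single-cell clones cut with Cas9, and 1 line in which both genes were targeted (FAM3C/LIFR double KO). The label of the double KO does not name it a clone. FAM3C is a secreted cytokine and LIFR is the leukemia inhibitory factor receptor. The second dataset compared NMuMG cells without the hairpin, as the labels give them (the paper names a nontargeting hairpin for its control cells), with shPCBP1 cells, in 2 libraries each. No knockout was made in the second dataset. Each FAM3C KO or LIFR KO line is thus 1 clone, and the spread within either group is a spread between single-cell isolates.

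The TCA cycle oxidizes acetyl groups in the mitochondrial matrix and hands the electrons to the respiratory chain. Citrate synthase (Cs) joins the acetyl group to oxaloacetate, isocitrate dehydrogenases (Idh2, which uses NADP, and the NAD-dependent complex that contains Idh3a) make oxoglutarate, and the oxoglutarate dehydrogenase complex turns oxoglutarate into succinyl-CoA. Ogdh is the decarboxylating subunit of that complex, Dlst the succinyl-transferring core and Dld the lipoamide dehydrogenase shared with related complexes. Ogdhl is a paralog of Ogdh that can take its place and is best known from brain. Sdha is the flavoprotein subunit of succinate dehydrogenase, Fh1 is fumarase and Mdh2 is the mitochondrial malate dehydrogenase that closes the cycle.

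On GRCm38 (GENCODE M21) Ogdhl lies on chromosome 14 from 32322019 to 32348151 on the plus strand and Ogdh on chromosome 11 from 6291633 to 6356642 on the plus strand. Idh2 lies on chromosome 7 from 80094846 to 80115392 on the minus strand. The promoter windows of these 3 genes are shown because Ogdhl is the gene around which the set was chosen, Ogdh is its abundant paralog, and Idh2 had the largest fall of the 9 genes in shPCBP1 cells of the second dataset. Windows run from 250 bases before to 50 bases after the gene start, are read 5′ to 3′ on the gene's strand, and come from RefSeq on GRCm38.p6, which held 8 of the 9 genes (all but Idh3a). For Ogdh, with 6 starts in that table, the most upstream start was taken.
Ogdhl, chr14:32321769-32322068, plus strand: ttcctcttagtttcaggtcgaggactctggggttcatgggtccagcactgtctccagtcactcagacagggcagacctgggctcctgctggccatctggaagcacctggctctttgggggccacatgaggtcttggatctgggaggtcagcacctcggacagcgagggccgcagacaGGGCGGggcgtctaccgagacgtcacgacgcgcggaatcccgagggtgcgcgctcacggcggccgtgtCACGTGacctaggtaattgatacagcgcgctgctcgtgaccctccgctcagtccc
Ogdh, chr11:6291347-6291646, plus strand: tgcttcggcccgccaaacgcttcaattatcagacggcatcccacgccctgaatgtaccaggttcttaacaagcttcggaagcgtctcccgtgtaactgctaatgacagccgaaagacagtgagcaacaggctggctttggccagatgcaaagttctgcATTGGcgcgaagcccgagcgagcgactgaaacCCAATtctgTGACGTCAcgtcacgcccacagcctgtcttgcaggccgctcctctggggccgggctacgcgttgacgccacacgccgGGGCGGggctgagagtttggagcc
Idh2, chr7:80115301-80115600, minus strand: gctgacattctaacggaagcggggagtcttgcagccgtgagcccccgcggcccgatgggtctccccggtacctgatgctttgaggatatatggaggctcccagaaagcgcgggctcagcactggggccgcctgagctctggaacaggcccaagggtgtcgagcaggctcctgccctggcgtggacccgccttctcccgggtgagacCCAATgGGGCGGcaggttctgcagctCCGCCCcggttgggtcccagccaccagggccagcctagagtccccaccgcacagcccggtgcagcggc
Capitals mark every match to 7 short motifs searched on both strands. In Ogdhl these were a GC box (GGGCGG, bases -73 to -68 from the start) and an E-box (CACGTG, bases -5 to 1). In Ogdh they were 2 CCAAT boxes (bases -92 to -88 and -60 to -56), a cAMP response element (TGACGTCA, bases -51 to -44) and a GC box (bases 27 to 32). In Idh2 they were a CCAAT box (bases -44 to -40) and 2 GC boxes (bases -38 to -33 and -18 to -13). Of 32851 windows of the same length, 35.7% held the GC box, 37.4% the CCAAT box, 7.15% the E-box and 1.79% the cAMP response element. The STAT3 element TTCNNNGAA, found in 8.3% of all windows, had no match in the windows of the 8 genes. The NRF1 element (0.971% of windows) and the ERRA element (TNAAGGTCA, 1.28%) had none either. These are matches of letters and were not tested as binding sites. The 3 windows held 23, 25 and 20 CpG dinucleotides in the order printed, against a median of 7 over all windows. In the same order, 78.5%, 81.6% and 73.5% of all windows held fewer.

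Values are CPM, read counts that the authors scaled to library size, and the datasets were normalized separately, so levels are compared only within a dataset. Taking the smallest step between values as 1 read, totals were 16031859 to 46901675 reads in the first dataset and 53032194 to 56496389 in the second. The p-values measure only the spread between these samples because nothing says that the libraries of the second dataset came from separate cultures. Of the epithelial markers, 7 of 10 were in each file and 6 of them averaged over 1 CPM in every group (Cdh1 at 246 to 362 CPM over the lines of the first dataset), while no immune or endothelial marker averaged over 1 CPM in any group. Neuron and glia markers summed to 1.03 to 1.82 CPM in the first dataset and 0.536 to 0.943 CPM in the second. Fam3c was at 26.4 to 42.9 CPM in FAM3C KO and 47.0 to 59.4 in shPCBP1. Lifr in the LIFR KO clones (14.6 to 34.9 CPM) overlapped shPCBP1 (25.8 to 40.2) and was at 4.36 in the double KO. Guide pairs removed a short coding fragment, so transcript counts over the whole gene do not check the KO labels. Pcbp1 was at 287 and 312 CPM in NMuMG and 14.1 and 14.2 in shPCBP1 of the second dataset. LIFR KO clones 2 and 3 and the double KO stood apart from the other lines of the first dataset. Their genes differed from the shPCBP1 mean along the GC content of the transcript (Spearman's rho of -0.76, -0.756 and -0.712 across 12527 genes, against -0.289 to 0.239 in the other 8 lines). LIFR KO results below are therefore given with and without those clones.

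Ogdhl was the lowest of the 9 genes in every group when levels were taken per kilobase of transcript. Among shPCBP1 lines the unaltered one held 4.24 CPM, and CT clones 1, 2 and 3 held 2.43, 1.66 and 1.75 CPM. The FAM3C KO clones, in the same order, held 10.4, 9.20 and 9.99 CPM. The lowest FAM3C KO clone was thus 2.17-fold above the unaltered line, which was the highest shPCBP1 line, and 3.78-fold above the highest CT clone. Within shPCBP1 the unaltered line was 2.18-fold above the mean of the CT clones.

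**Figure D1:**
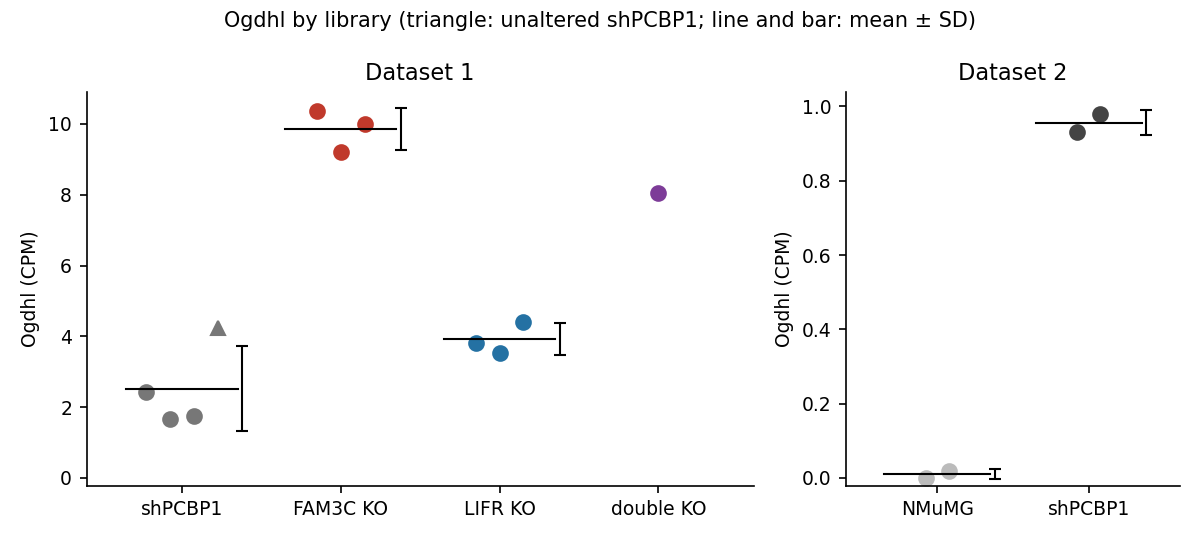
Ogdhl in CPM on linear axes that start near 0, by library and group, for the first dataset (left) and the second (right). Points are libraries, the triangle is the unaltered shPCBP1 line, and horizontal lines with bars give the mean ± SD of groups with more than 1 library; the 3 FAM3C KO clones (9.20 to 10.4 CPM) and the double KO (8.06 CPM) lie above all 4 shPCBP1 lines (1.66 to 4.24 CPM).

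The FAM3C KO mean of Ogdhl was 9.85 ± 0.594 CPM (SD, n = 3) and the shPCBP1 mean 2.52 ± 1.20 CPM (SD, n = 4), a log2 difference of 2.02 (SE 0.284) on the log2(CPM + 0.1) scale. Among the 11 genes called as rises in the fit made here (0.0872% of the 12621 genes, at an adjusted p under 0.07 by limma), Ogdhl was number 3 by size. Because Ogdhl was chosen as one of the largest rises, this rank describes the choice and is no test of Ogdhl. The rise ranked just above it was Gpr141, an orphan receptor, at 2.31 and the rise just below it was Padi3, a protein citrullinating enzyme, at 1.70. Taken in steps of the lowest value of a library, which is about the size of 1 read, Ogdhl stood at 41 to 114 steps in shPCBP1 and 230 to 260 steps in FAM3C KO.

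The double KO line held 8.06 CPM of Ogdhl. It was 3.2-fold above the shPCBP1 mean, above each shPCBP1 and each LIFR KO line, and below each FAM3C KO clone, at 0.818 of their mean. With a single library this value has no replicate check.

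LIFR KO clones 1, 2 and 3 held 3.81, 3.54 and 4.42 CPM of Ogdhl. All 3 lay above the CT clones, and clones 1 and 2 lay below the unaltered shPCBP1 line. The log2 difference from shPCBP1 was 0.71 (SE 0.284), with an adjusted p of 0.113 by limma and an exact permutation p of 0.171 (two-sided with the smaller tail doubled, 3 against 4 lines, a design that cannot go below 0.0571). The adjusted p ran from 0.079 to 0.592 over 20 alternatives, so no alternative passed the threshold. LIFR KO and FAM3C KO were set against the same 4 shPCBP1 lines, so their values are not independent of each other. Ogdhl was chosen by its rise over those 4 lines, so its p-values in LIFR KO, here and below, are no independent test.

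In the second dataset Ogdhl was at or near no reads in NMuMG cells and was detected in shPCBP1 cells. NMuMG libraries 1 and 2 gave 0 reads and 1 read, and shPCBP1 libraries 1 and 2 gave 52 and 53 reads (0.932 and 0.979 CPM). Summed over libraries, the ratio was 104.6 with an exact 95% interval of 18.4 to 4171 that covers counting error only. The mean over the 4 libraries did not reach the minimum of 0.5 CPM, so Ogdhl was left out of the test of this dataset. In the fit without that minimum its log2 difference was 3.27 with an adjusted p of 0.000279 by limma, a size that depends on the added 0.1 CPM, and 36.4% of all 15023 genes were called higher in that fit.

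Ogdh, the abundant paralog, was not higher in FAM3C KO. The unaltered shPCBP1 line held 291 CPM of Ogdh, the CT clones 287, 280 and 300 CPM, and the FAM3C KO clones 242, 284 and 275 CPM. The groups overlapped, with a log2 difference of -0.12 (SE 0.127). The LIFR KO clones held 304, 209 and 230 CPM, and the double KO 220 CPM. Clone 1 was above every shPCBP1 line and clones 2 and 3 were below every one (log2 difference -0.25, SE 0.127, adjusted p = 0.183 by limma, exact permutation p = 0.286).

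The share of Ogdhl in the summed level of the pair, per kilobase of transcript, does not depend on the scaling of a library. The unaltered shPCBP1 line gave 1.59%, and the CT clones gave 0.929%, 0.651% and 0.643%. The FAM3C KO clones gave 4.54%, 3.47% and 3.87%, and the double KO gave 3.90%. Ogdh thus remained the major transcript of the pair in every line. The LIFR KO clones gave 1.37%, 1.84% and 2.08%, and their range overlapped that of shPCBP1. The log2 ratio of Ogdhl to Ogdh was 0.96 higher in LIFR KO than in shPCBP1 (exact permutation p = 0.114, two-sided, 3 against 4 lines). The Ogdhl values of those shPCBP1 lines also entered the choice of the gene, so this p is no independent test. The shPCBP1 libraries of the second dataset gave 0.931% and 0.99%, and those of NMuMG at most 0.0306%.

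Dlst is the core subunit that serves either paralog. The unaltered shPCBP1 line held 186 CPM, the CT clones 202, 182.4 and 221 CPM, and the FAM3C KO clones 168, 181.9 and 164 CPM. The groups did not overlap, but the highest FAM3C KO clone and the lowest shPCBP1 line nearly met, and 12.5% of all genes were separated downward. The LIFR KO clones (186, 163 and 151 CPM) overlapped shPCBP1. The double KO was lowest at 139 CPM. Dld, the shared lipoamide dehydrogenase, gave 63.8 to 80.0 CPM in FAM3C KO against 63.5 to 75.5 in shPCBP1. The LIFR KO clones gave 65.4, 127 and 111 CPM of Dld (log2 difference 0.48, adjusted p = 0.119 by limma). That difference was 0.20 after the GC correction given below and -0.09 with clone 1 as the only LIFR KO line. Dhtkd1, a further decarboxylating relative of Ogdh, is listed only in the second dataset, at 0.0378 to 0.142 CPM.

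For the remaining 6 genes of the cycle the differences in FAM3C KO were small beside that of Ogdhl. Their log2 differences from shPCBP1 lay between -0.18 (Cs) and 0.09 (Fh1), and each overlapped shPCBP1. Cs ranged from 369 to 375 CPM in FAM3C KO and from 373 to 559 CPM in shPCBP1, where CT clone 2 stood far above the other 3 lines (373 to 388 CPM). Without CT clone 2 its log2 difference was -0.04 instead of -0.18. Idh2 spread most among the FAM3C KO clones, at 85.3, 59.5 and 73.5 CPM, on both sides of the shPCBP1 range of 67.4 to 75.2 CPM. Idh3a, Sdha and Mdh2 gave 130 to 145, 147 to 154 and 172 to 192 CPM in FAM3C KO and 127 to 160, 152 to 165 and 187 to 208 CPM in shPCBP1. Fh1 gave 44.4 to 46.5 CPM in FAM3C KO and 40.0 to 46.9 CPM in shPCBP1. Ogdhl, which fixed the choice, was the 1 gene of the 9 past the threshold (0.309% of all genes), so nothing is read from that count. Besides Ogdhl (10.1% of all genes were separated upward), Dlst was separated from shPCBP1, where 22.7% of all genes were in either direction. The mean was below 0 for 6 of the 9 genes and for 52.9% of all genes.

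**Figure D2:**
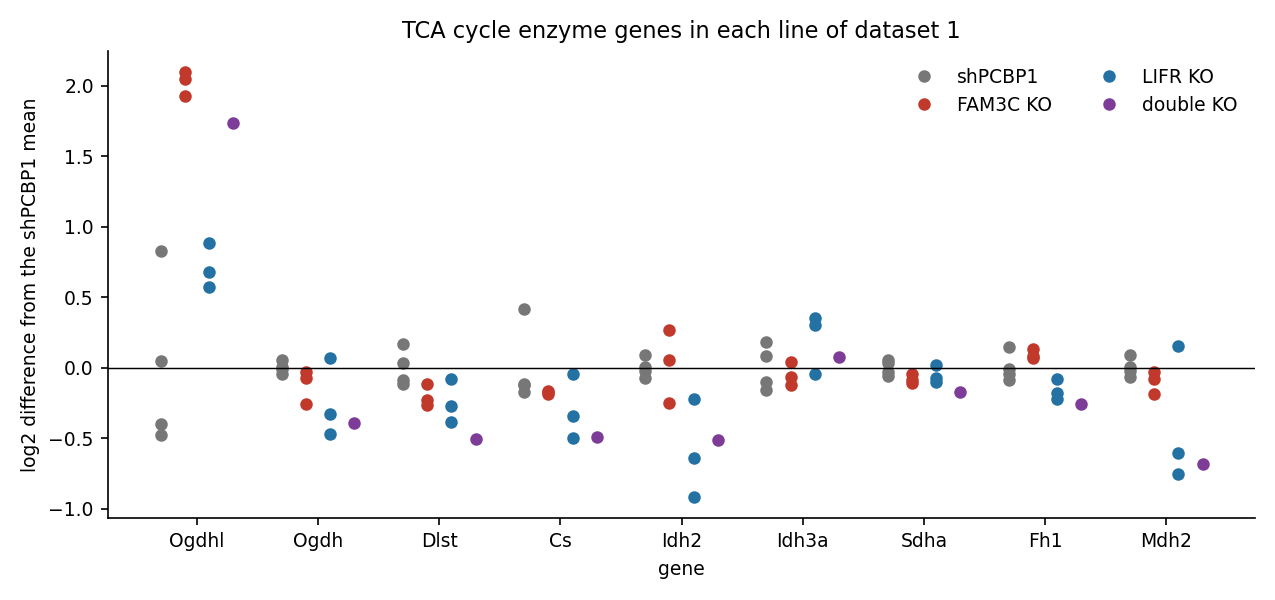
Log2 difference of each line from the shPCBP1 mean, on the log2(CPM + 0.1) scale, for the 9 genes of the first dataset; each point is a line and colors give the groups. Ogdhl is the gene with FAM3C KO clones near 2, while the FAM3C KO points of the other 8 genes stay close to 0. LIFR KO points lie below 0 for Idh2, Dlst, Cs and Fh1, and on both sides of 0 for Mdh2, Ogdh, Idh3a and Sdha.

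Within shPCBP1 the order of levels per kilobase was Cs, Mdh2, Dlst, Ogdh, Idh3a, Sdha, Idh2, Fh1 and Ogdhl, from 146 to 0.677 CPM per kilobase. Neighbors in that order overlapped between lines in 3 pairs, Cs with Mdh2, Dlst with Ogdh, and Idh3a with Sdha. FAM3C KO kept those pairs together, with Ogdh above Dlst. Across the 11 lines of the first dataset, Pearson's r of log2 values with Ogdhl was -0.61 for Dlst, -0.62 for Sdha, -0.33 for Ogdh and 0.26 for Fh1. It was -0.50 for Cs, -0.23 for Idh3a, -0.21 for Mdh2 and 0.03 for Idh2. These correlations are a description of lines that share a parent line, and 3 of the 11 share the GC trend.

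In LIFR KO none of the 9 genes passed the threshold by limma, where 6.47% of all genes did in either direction (0.911% higher and 5.55% lower). At an unadjusted p under 0.05 there were 4503 of the 12621 genes. All genes together had a median log2 difference of -0.16, and 64.5% of them lay below 0, as did 7 of the 9. Idh2 came closest. The LIFR KO clones held 60.8, 37.5 and 45.5 CPM, below the shPCBP1 range of 67.4 to 75.2 CPM. No other of the 9 genes was separated, where 17.2% of all genes were in either direction (13.2% lower and 3.95% higher). For Idh2 the log2 difference was -0.59 (SE 0.166, adjusted p = 0.0715 by limma, 0.00124 to 0.661 over 20 alternatives). The exact permutation p was 0.0571 (two-sided, 3 against 4 lines), the smallest that this design can give. Relative to the median of all genes the difference was -0.43.

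Mdh2 showed how the clones parted. LIFR KO clone 1 gave 217 CPM, above the shPCBP1 range of 187 to 208 CPM, whereas clones 2 and 3 gave 129 and 116 CPM and the double KO 122 CPM. The log2 difference was -0.40 (SE 0.181, adjusted p = 0.14 by limma). Idh3a went the other way, with 137 CPM in clone 1, inside the shPCBP1 range, and 180 and 174 CPM in clones 2 and 3, above it. For LIFR KO clones in the same order, Cs gave 408, 331 and 298 CPM, Sdha gave 160, 151 and 148 CPM, and Fh1 gave 37.5, 36.4 and 40.1 CPM. Fh1 and Sdha turned above 0 when libraries were rescaled by median ratios (log2 differences of 0.0021 and 0.11).

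The differences of Idh2 and Mdh2 moved with the GC content of the transcripts, whereas that of Idh3a changed little with the correction given below. In LIFR KO clone 2 the median log2 difference of all genes fell from 0.39 in the lowest GC quartile to -0.80 in the highest, in clone 3 from 0.43 to -0.78 and in the double KO from 0.37 to -0.77, while clone 1 went from -0.05 to 0.02. Idh2, Mdh2 and Ogdhl have transcripts of 55.4%, 55.4% and 55.0% GC and Idh3a of 46.9%. After a correction for GC, the log2 differences of Idh2 in LIFR KO clones 1 to 3 were -0.15, -0.24 and -0.02, and those of Mdh2 were 0.22, 0.07 and -0.14. Those of Idh3a were 0.02, 0.38 and 0.30, against -0.05, 0.35 and 0.31 before the correction. For Idh3a the group difference was 0.20 before it and 0.23 after it (adjusted p = 0.275 by limma). Over the group the corrected differences were -0.14 for Idh2 (adjusted p = 0.489 by limma) and 0.05 for Mdh2 (adjusted p = 0.791), and the directions of Ogdh, Dlst, Sdha and Mdh2 turned. The values of Ogdhl were larger after the correction than before it. They were 0.74, 1.22 and 1.47 in LIFR KO clones 1 to 3, 2.32 in the double KO and 1.14 over the LIFR KO group (SE 0.297, adjusted p = 0.124 by limma).

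**Figure D3:**
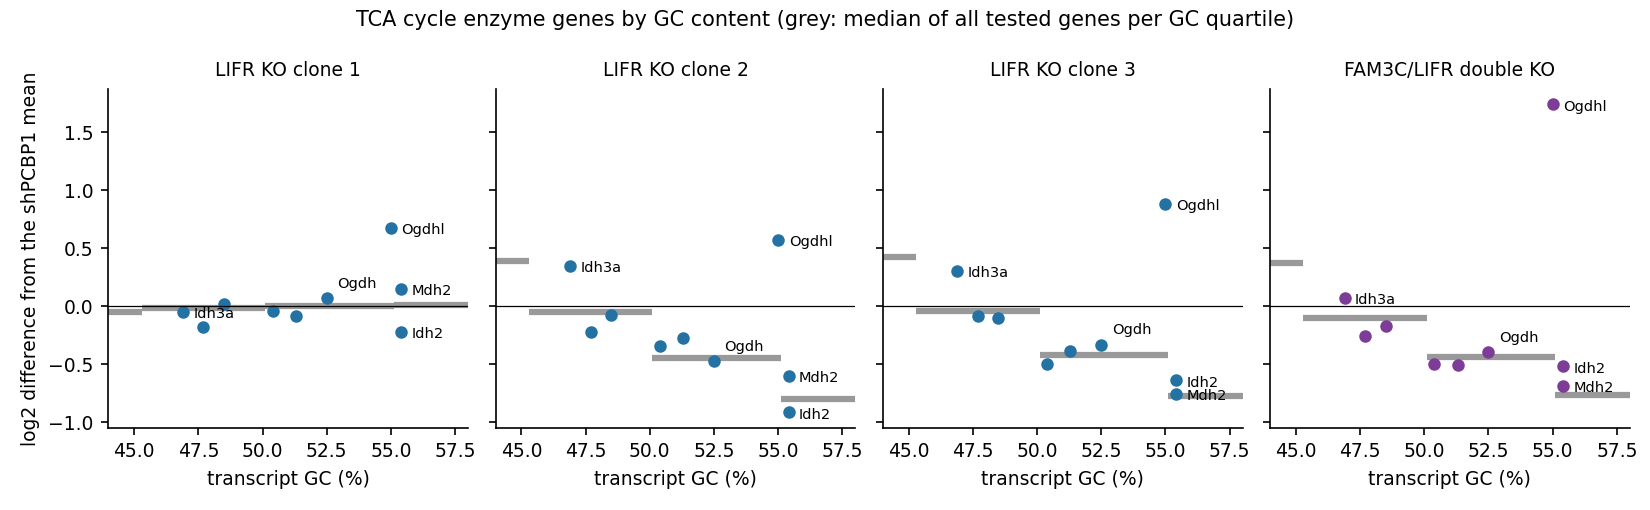
Log2 difference from the shPCBP1 mean against transcript GC content in percent, for the 9 genes in LIFR KO clones 1 to 3 and the double KO (points, 5 of them named); grey bars are the medians of all tested genes in each GC quartile, cut at the edges of the plot. In clones 2 and 3 and the double KO most of the 9 genes lie near the grey bars and Ogdhl lies above them. Idh3a also lies above its bar in clones 2 and 3. In clone 1 the bars are near 0.

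With LIFR KO clone 1 as the single KO line, none of the 9 genes was called where 2.22% of all genes were, and Ogdhl stood at a log2 difference of 0.68 (SE 0.431, adjusted p = 0.592 by limma). Without clone 1, 6 of the 9 genes (Ogdh, Dlst, Cs, Idh2, Idh3a and Mdh2) were called where 57.3% of all genes were. Summed epithelial markers were also lower in LIFR KO, at 1228 to 2111 CPM against 2480 to 3186 CPM in shPCBP1, and summed mesenchymal markers were at 1630 to 2223 against 2136 to 2392 CPM. Their part in the differences of the 9 genes was not tested.

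Other genes of the pathway were also compared between LIFR KO and shPCBP1, where 6.47% of all genes were called. Among 19 tested genes of anaplerosis and cytosolic counterparts, 1 was called, Me1, the cytosolic malic enzyme, which rose (288, 367 and 219 CPM against 174 to 201 CPM, log2 difference 0.59, adjusted p = 0.061 by limma). Its log2 difference was 0.52 after GC correction (adjusted p = 0.157 by limma) and 0.60 with clone 1 as the only LIFR KO line. Among 12 genes of mitochondrial mass and biogenesis, 1 was called, Ppargc1b, a transcriptional coactivator of respiratory genes. Ppargc1b fell by 0.98 on the log2 scale (adjusted p = 0.04 by limma, and 0.222 after GC correction). With clone 1 as the only LIFR KO line its log2 difference was -0.575. None of 18 tested subunits, regulators and lipoylation enzymes of related dehydrogenases was called in the fit of all LIFR KO clones. Genes of these lists are not called here from clone 1 alone, which is 1 line.

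**Figure D4:**
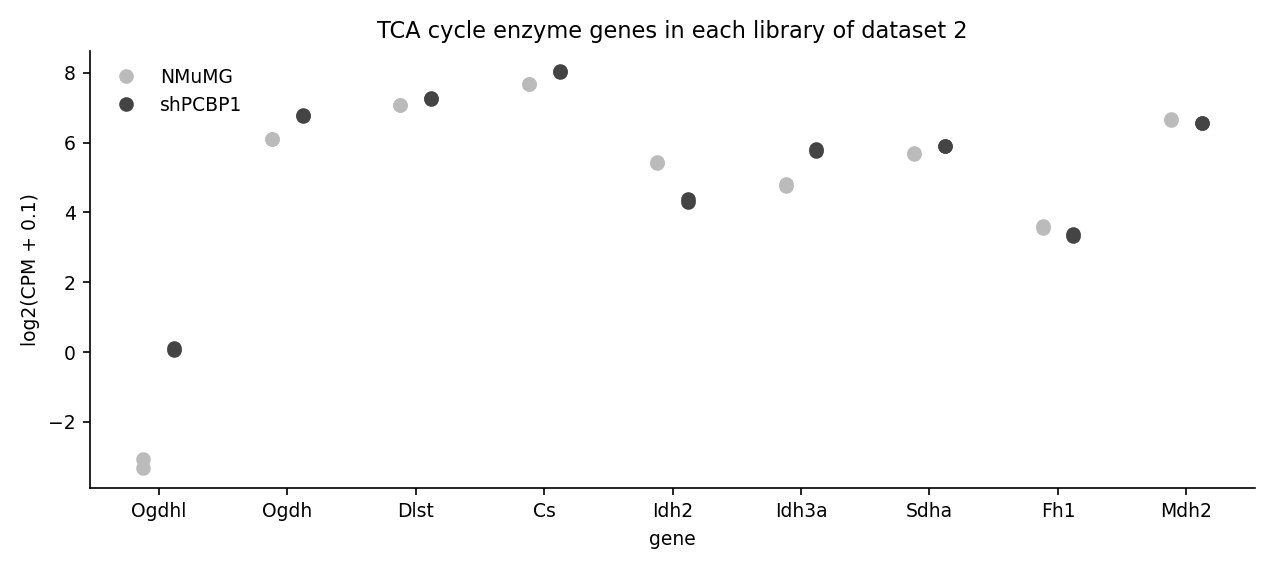
Level of the 9 genes as log2(CPM + 0.1) in each library of the second dataset, with 2 NMuMG and 2 shPCBP1 libraries per gene. The libraries of a group nearly coincide; Ogdhl rises from near the floor, Ogdh and Idh3a lie higher and Idh2 lies lower in shPCBP1.

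Between shPCBP1 and NMuMG cells of the second dataset the enzymes of the cycle differed in both directions. All 8 tested genes passed the threshold by limma, where 80.1% of all genes did. Of the 8, 5 rose (42.1% of all genes) and 3 fell (38.0%). When the change also had to reach 1.5-fold, Idh3a and Ogdh passed as rises (16.0% of all genes) and Idh2 as a fall (15.1%), which made 3 of 8 against 31.1%. All 8 were separated between the groups, as were 89.0% of all genes (46.3% higher and 42.6% lower). The 2 against 2 design cannot go below an exact permutation p of 0.333.

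At the step from isocitrate to oxoglutarate the isocitrate dehydrogenases parted. Idh2 stood at 43.8 and 42.5 CPM in NMuMG and at 19.6 and 20.6 CPM in shPCBP1, a log2 difference of -1.10 (SE 0.0405, adjusted p = 9.01e-10 by limma). Idh3a stood at 27.1 and 27.7 CPM in NMuMG and at 55.7 and 53.5 CPM in shPCBP1, a log2 difference of 0.99 (SE 0.0353, adjusted p = 6.8e-10). The other subunits of the NAD-dependent complex, Idh3b and Idh3g, fell by 0.24 and 0.48 on the log2 scale (adjusted p of 0.000578 and 7.42e-06 by limma). The cytosolic Idh1 fell by 1.20 (adjusted p = 6.07e-10).

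In the oxoglutarate dehydrogenase complex Ogdh stood at 68.5 and 68.7 CPM in NMuMG and at 110 and 109 CPM in shPCBP1, a log2 difference of 0.67 (SE 0.0249, adjusted p = 9.2e-10 by limma). Dlst stood at 136 and 135 CPM in NMuMG and at 156 and 153 CPM in shPCBP1, a log2 difference of 0.19 (adjusted p = 1.76e-05), and Dld rose by 0.26 (adjusted p = 0.000348). Ogdh and both partner subunits thus rose, and Ogdhl had more reads in both shPCBP1 libraries.

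Cs, the entry to the cycle, rose from 205 and 205 CPM to 267 and 258 CPM (log2 difference 0.36, adjusted p = 7.77e-08 by limma) and Sdha from 52.0 and 50.5 CPM to 59.2 and 60.1 CPM (0.22, adjusted p = 4.69e-05). Fh1 and Mdh2 fell. Fh1 went from 11.7 and 12.2 CPM to 10.3 and 9.87 CPM (log2 difference -0.24, adjusted p = 0.00479) and Mdh2 from 100 and 102 CPM to 94.7 and 94.5 CPM (-0.09, adjusted p = 0.00441). The call for Fh1 was lost without shPCBP1 library 2 (adjusted p = 0.0724; range over 14 alternatives 0.00226 to 0.0724). Summed mesenchymal markers were at 598 to 617 CPM in NMuMG and 1639 to 1668 CPM in shPCBP1, summed epithelial markers at 2954 to 3007 and 2776 to 2833 CPM, and their part in these differences was not tested.

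Other genes of the pathway moved in both directions as well. Counts in these lists stand beside 42.1% of all genes called higher and 38.0% called lower. Of 15 other enzymes, subunits and assembly factors of the cycle, 5 rose and 4 fell in shPCBP1 (median log2 difference -0.02, against 0.02 over all genes tested), with the largest differences in Suclg2, a succinyl-CoA ligase subunit, at -0.90, Idh3g, the succinate dehydrogenase anchor Sdhd at 0.41 and the assembly factor Sdhaf2 at -0.38. Of 18 tested relatives, regulators and lipoylation enzymes, 9 rose and 5 fell. Pdk1, a kinase that inhibits pyruvate dehydrogenase, went from 76.1 and 80.3 CPM to 20.2 and 20.9 CPM (log2 difference -1.92, adjusted p = 7.53e-12 by limma). The related kinase Pdk3 rose by 0.88, and Pdk2 was not called. Of the phosphatases of the same enzyme, Pdp1 rose by 0.78 and Pdp2 fell by 0.44. The pyruvate dehydrogenase subunits Pdha1, Pdhb and Dlat rose by 0.60, 0.76 and 0.59. Pdhx, which anchors a subunit of the same complex, fell by 0.47. Dbt, the core of the branched-chain complex, rose by 1.46 while its decarboxylating subunit Bckdha fell by 1.08 and its phosphatase Ppm1k by 1.52. Of 17 tested genes of anaplerosis and cytosolic counterparts, 3 rose and 10 fell (median -0.24). These included Got1, the cytosolic aspartate aminotransferase, at -1.75, and Pcx, pyruvate carboxylase, at -1.61, while the mitochondrial Got2 rose by 0.62 and the glutaminase Gls2 by 1.03. Of 12 genes of mitochondrial mass and biogenesis, 8 rose and 2 fell (median 0.24). The rises included Vdac2, an outer membrane channel, at 1.11, Ppargc1b at 0.88, the matrix chaperone Hspa9 at 0.41 and the import channel Tomm40 at 0.30. The 2 that fell were Tfam at -0.22 and Esrra at -0.20.

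Genes around Ogdhl were examined by their place on chromosome 14. Of the 10 tested neighbors, 5 on each side, 9 had log2 differences between -0.20 and 0.33 in FAM3C KO, including the adjacent Parg (0.06) and Ercc6 (-0.04). The exception was Wdfy4, an antigen presentation gene 2 places beyond Ogdhl, from 32959547 to 33185508 on the minus strand. The FAM3C KO clones held 24.4, 25.1 and 12.8 CPM, the unaltered shPCBP1 line held 6.36 CPM and the CT clones held 0.849 to 1.36 CPM. The log2 difference of 3.42 (SE 0.847) was not among the calls. The LIFR KO clones held 0.322, 0.25 and 3.69 CPM, and the double KO held 1.17 CPM, inside the range of the CT clones. In the second dataset Wdfy4 stood at 0.106 and 0.0378 CPM in NMuMG and 0.932 and 1.11 CPM in shPCBP1.

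**Figure D5:**
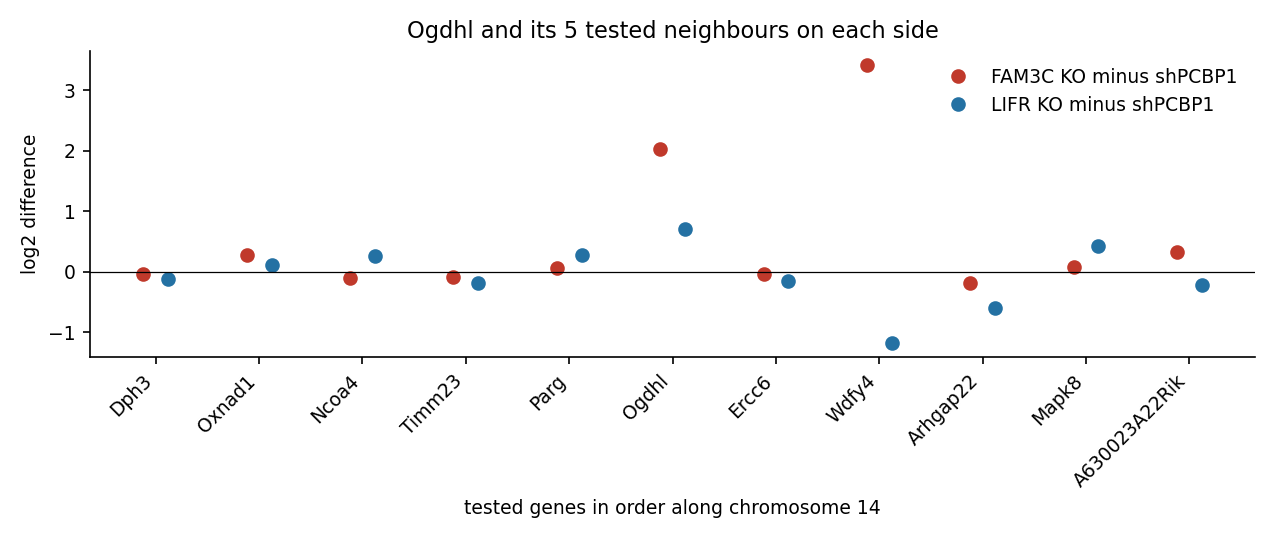
Log2 difference from shPCBP1 of Ogdhl and the 5 tested genes on each side, in their order along chromosome 14, for FAM3C KO (red) and LIFR KO (blue), which share the same 4 shPCBP1 lines. Ogdhl (2.02) and Wdfy4 (3.42) stand out in FAM3C KO among genes that lie between -0.20 and 0.33.

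The genes most like Ogdhl over the 11 lines of the first dataset, by Pearson's r of log2(CPM + 0.1), were Ccnd2 (0.99), Cfap77 (0.97), Ccl2 (0.94), Aox1 (0.93) and Slco5a1 (0.93). They were picked for this pattern, so their levels in the first dataset are a description. Ccnd2, which encodes cyclin D2, ranged from 182 to 261 CPM in shPCBP1, with the unaltered line highest as for Ogdhl, from 373 to 398 CPM in FAM3C KO and from 246 to 251 CPM in LIFR KO, and was at 338 CPM in the double KO. The second dataset was not used for the choice. There the chemokine gene Ccl2 and the aldehyde oxidase gene Aox1 rose in shPCBP1 (log2 differences of 1.87 and 1.67, adjusted p of 4.05e-12 and 3.69e-06 by limma). The transporter gene Slco5a1 is listed at the value for no reads in both NMuMG libraries and stood at 3.91 and 3.99 CPM in shPCBP1 (adjusted p = 2.63e-10 by limma), so no fold is given. Ccnd2 fell, from 185 and 197 CPM to 127 and 128 CPM (-0.58, adjusted p = 1.14e-08). Cfap77 was under the minimum for the test there, at 0.0001 and 0.0378 CPM in NMuMG and 0.233 and 0.296 CPM in shPCBP1, where 0.0001 is the value that stands for no reads.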

How the data were processed

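RNA-Seq of rRNA-depleted total RNA (directional, paired-end libraries) was examined for 11 lines in the first dataset and 4 libraries in the second. According to the methods and the submitters' processing notes, reads were aligned with Bowtie2 to GRCm38 and quantified and tested in Partek (Partek Flow, DESeq2). The authors deposited normalized CPM per sample. For the second dataset they also deposited group means and a ratio (fold change) of the means, which were not used. All per-sample columns were matched to a sample. No value in the first dataset is 0, and whether the lowest value of a library there stands for 1 read or for none is not given in the sources used here. The second dataset lists 0.0001 where a gene has no reads. Values were whole multiples of the step of 1 read (tolerance 0.05) for only 0.833 to 0.848 of low values in the first dataset and 0.886 to 0.892 in the second, so no count test was run. Intervals cover counting error only.

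Tests used log2(CPM + 0.1), on which changes of low genes come out too small. The limma package (version 3.58.1, R 4.3.3) was run with its intensity trend on the 12621 and 11384 genes that averaged 0.5 CPM or more, with p-values adjusted by Benjamini-Hochberg over all genes, at an adjusted p under 0.07. The first dataset was fitted with shPCBP1, FAM3C KO and LIFR KO together, without the double KO. Single values were compared with exact two-sided permutation tests. GC content came from GENCODE M21, whose gene starts equalled those of the second dataset for 14269 of 14795 matched genes and of the first for 302 of 13870. First-dataset coordinates were therefore used for gene order only.

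The 9 genes and the gene lists were chosen with earlier results of these data known. All 9 were named. From each list and tested comparison, the called genes with separated groups were named, at most the 4 with the largest difference, plus Dld and Dhtkd1. A further gene that this rule names is not reported here. In the second dataset Idh3b, Pdha1, Pdhb, Dlat, Pdhx, Pdk2, Pdk3, Pdp1, Pdp2, Got2, Tfam and Esrra were named after their values were seen. The called rises next to Ogdhl in size, the 5 genes most like Ogdhl and its 5 tested neighbors on each side were named by rule. Alternatives were a pseudocount of 1, no minimum or one of 2 CPM, median-ratio rescaling, quantile normalization, an adjusted p under 0.05, a replicate block, leaving out each library, GC correction (loess, span 0.3) alone and with the block, each pair of groups fitted alone, and LIFR KO clone 1 alone. Subtraction of the lowest value, a fold change of at least 1.5 and a crossed pairing in the second dataset were added after seeing the data. Plots used Python 3.11.15 and matplotlib 3.10.9.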

Additional observations from a re-analysis of the deposited data

Results flagged for a closer look

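Ogdhl in the double KO stood at 8.06 CPM, above each of the 4 shPCBP1 lines. The line is a single library and entered no comparison. Cs in CT clone 2 stood at 559 CPM, and its gap to the next shPCBP1 line was 0.921 of the range of the 4 lines, past the 95% critical value of Dixon's test, which chance passes in about 5% of groups (9 genes were examined in this way). Every FAM3C KO clone lay above the shPCBP1 mean of Fh1 and every LIFR KO clone below it (mean log2 differences of 0.0916 and -0.161). All CT clones lay below that mean too, and the unaltered shPCBP1 line (46.9 CPM) lay above every FAM3C KO clone. The opposite movement of FAM3C KO and LIFR KO was not tested, and the same shPCBP1 lines serve both. After median-ratio rescaling the LIFR KO value was 0.0021.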

How the results depend on the processing

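The log2 difference of Ogdhl in FAM3C KO, the value behind the choice of genes, was 2.02. It ran from 1.68 with a pseudocount of 1 to 2.34 with the replicate block and GC correction, and from 1.86 to 2.30 when a line was left out. The count of the 9 genes called in LIFR KO was 0. It was 1 with a minimum of 2 CPM (Idh2) and 0 to 6 when a line was left out (6 without LIFR KO clone 1). Listed genes called in LIFR KO numbered 3. They numbered 5 after median-ratio rescaling, 0 with the groups fitted alone or with GC correction, and 0 to 32 when a line was left out (32 without LIFR KO clone 1, 5 without clone 3 and 0 without clone 2 or any shPCBP1 line). The ratio of Ogdhl to Ogdh in LIFR KO stayed between 0.81 and 1.23 when a line was left out. In the second dataset the 9 genes gave 8 calls, and 3 with a fold change of at least 1.5, with 7 to 8 when a library was left out. Listed genes gave 46 calls there, 19 with the fold change and 44 to 48 when a library was left out.

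All genes called in FAM3C KO numbered 39, with 12 at a minimum of 2 CPM, 1040 with the groups fitted alone, 269 with GC correction, and 3 to 27 when a line was left out. In LIFR KO they numbered 816, with 478 after median-ratio rescaling, 359 at an adjusted p under 0.05, 34 with the groups fitted alone, 42 with GC correction, 280 with clone 1 alone, and 5 to 7232 when a line was left out. In the second dataset they numbered 9123, and 3543 with the fold change. The causes were not tested.

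The replicate numbers are clone and library numbers and did not pair the samples. Correlations of same-numbered deviations ran from -0.188 to 0.0378 among the lines and came to 0.0512 for NMuMG and shPCBP1 libraries. With the replicate block the log2 difference of Ogdhl in FAM3C KO was 2.30, LIFR KO gave 0 calls among the 9 genes and 0 among the listed genes (0 with GC correction too), and the second dataset gave 8 and 47. All genes called with the block numbered 15 in FAM3C KO (15 with GC correction), 10 in LIFR KO (3) and 9235 in the second dataset. With the pairing crossed the second dataset gave 8, 48 and 9115. Where leaving out a line leaves 1 library in a group, that library was assumed to vary like the others.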
